A study of Mus musculus with 15 samples.

Results

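Integrins and other adhesion molecules are the surface proteins with which a T cell holds on to other cells, to vessel walls and to the extracellular matrix. The 36 genes described here were taken by symbol from a list of integrin chains, intercellular adhesion molecules, a selectin ligand and other adhesion receptors, and all 36 were found among the 27179 genes of the count table. They comprise 24 integrin chains, 16 alpha and 8 beta, and 12 other adhesion molecules. The filter on low counts was passed by 26 of them, namely 8 alpha chains, 6 beta chains and all 12 of the others, and was not passed by 10.

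Messenger RNA was sequenced in 15 libraries of mouse CD4 T cells made in culture, with 5 libraries each for Th1, Th17 and T follicular helper (Tfh) cells. Naive CD4 cells were cultured for 3.5 days, with activation by antibodies against CD3 and CD28 bound to the plate, and were then sorted by flow cytometry. Every group carried the same genotype, written B6.Cg-Ifngtm3.1Lky-Il17atm1.1Lky in the labels, which names altered alleles of the cytokine genes Ifng and Il17a. The design text gives the Th1 sort as positive for IFNg and the Tfh sort as positive for CXCR5 and negative for IL-17A. The gate of the Th17 cells, the cytokines added to each culture and the sex and age of the mice are not stated in the sources used. No label says that the 5 libraries of a condition are from different mice or cultures. The p-values therefore rest on the spread between these libraries, which may be technical.

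Library totals ran from 4.87 M to 25.2 M counts (M, a 1 followed by 6 zeros), with a median of 10.5 M. Levels are given as CPM, counts per 1 M of the scaled library total, and each list of 5 values runs from replicate 1 to replicate 5. All 10 T cell markers were present in every library, with a summed level of 4411 to 9768 CPM. Of the genes that define the conditions, Tbx21 averaged 181 CPM in the Th1 libraries, 2.55 in the Th17 and 3.77 in the Tfh libraries, and Il17a averaged 0.0595, 225.1 and 15.1 CPM. Cxcr5 averaged 10.3, 39.0 and 169 CPM in the same order. Markers of other cells were low in most cases: the B cell list summed to 12.8 to 25.0 CPM in Th1, nearly all of it Ebf1, to 1.76 to 3.82 in Th17 and to 0 to 4.28 in Tfh, with Pax5 at 0 counts throughout. The gamma-delta T cell list summed to 20.2 to 45.2, 4.84 to 9.21 and 6.57 to 21.5 CPM, nearly all of it Trdc. Only 3 of its 6 genes were matched by symbol, and Tcrg-C1, Tcrg-C2 and Tcrg-C4 were not. The CD8 list summed to 7.29 to 26.1, 6.19 to 16.0 and 5.22 to 11.3 CPM. The myeloid list summed to 90.8 to 212, 132 to 187 and 99.6 to 158 CPM, carried by Cst3 and Cd68, with 4 of its 15 genes (Spi1, Clec9a, S100a8 and Mpo) at 0. The NK list reached at most 4.76 CPM, the platelet list 2.97, with 6 of its 9 genes at 0, and the erythroid list 1.45. The part of these cells in the results was not tested. Libraries also differed from their own condition's mean along GC content, with Spearman correlations across genes from -0.66 in Th1 replicate 1 to 0.72 in Th1 replicate 4, and strongly positive values also in Th1 replicate 3 (0.71), Th17 replicate 4 (0.71) and Tfh replicate 4 (0.58). Genes are not independent replicates, and these correlations are descriptions.

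An integrin is a pair of an alpha and a beta chain, and neither chain reaches the surface without a partner. The alpha and beta chains together set the ligand: the beta 2 integrin LFA-1 binds ICAM proteins on other leukocytes and on endothelium, the beta 7 integrins serve homing to and retention in the gut, and most beta 1 integrins bind matrix proteins. Chemokine and antigen receptor signals switch integrins from a bent to an extended state through talin and kindlin, and selectin ligands slow the rolling cell beforehand. Th1, Th17 and follicular helper cells are known to use different combinations of these molecules to reach inflamed tissue, mucosa or the B cell follicle. The mRNA levels below do not show what is on the surface or whether it is active, and in bulk libraries fewer cells that express a gene and less RNA per cell cannot be told apart.

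Comparing Tfh with Th17, 10 of the 26 adhesion genes tested were called, 4 higher and 6 lower in Tfh, against a background of 16.8% of all 12591 genes tested (6.8% higher, 9.98% lower). Comparing Tfh with Th1, 16 were called, 7 higher and 9 lower, against a background of 49.3% (24.1% higher, 25.2% lower). Comparing Th17 with Th1, 13 were called, 7 higher and 6 lower, against 36.9% (19% higher, 17.8% lower). A call is an adjusted p under 0.05 in edgeR's quasi-likelihood test with Benjamini-Hochberg adjustment over all genes tested. These counts make up 38.5%, 61.5% and 50% of the 26 genes. A gene that is high in 1 condition passed the filter through that condition, so the shares describe the genes that passed and are no test of the list. The 5 libraries of one condition all lay above or below the 5 of the other for 9, 14 and 11 of the 26 genes, where 14.5%, 34.3% and 28.8% of all genes tested did so. The median log2 fold change of the 26 was 0.25, -0.30 and -0.11, beside -0.01, -0.01 and 0.03 over all genes, and the median size of change was 0.61, 0.86 and 0.96, beside 0.33, 0.60 and 0.45. The 3 comparisons share libraries, so their values are given side by side.

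Of the 26, 4 were called in all 3 comparisons. Itgae, Itga6 and Cd96 stood in the order Tfh, Th17, Th1 from high to low, and Cd226 in the reverse order. Another 6, Itga4, Itga5, Itgb8, Selplg, Mcam and F11r, were called in none. The highest mean lay in Th1 for 12 genes, in Tfh for 9 and in Th17 for 5. Called against both other conditions were 4 of the genes highest in Th1 (Itgav, Icam1, Alcam and Cd226), 4 of those highest in Tfh (Itga6, Itgae, Itgb2 and Cd96) and 1 highest in Th17 (Itga3). No share over all genes tested stands beside the counts in this paragraph, so they only describe the 26 genes.

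**Figure D1:**
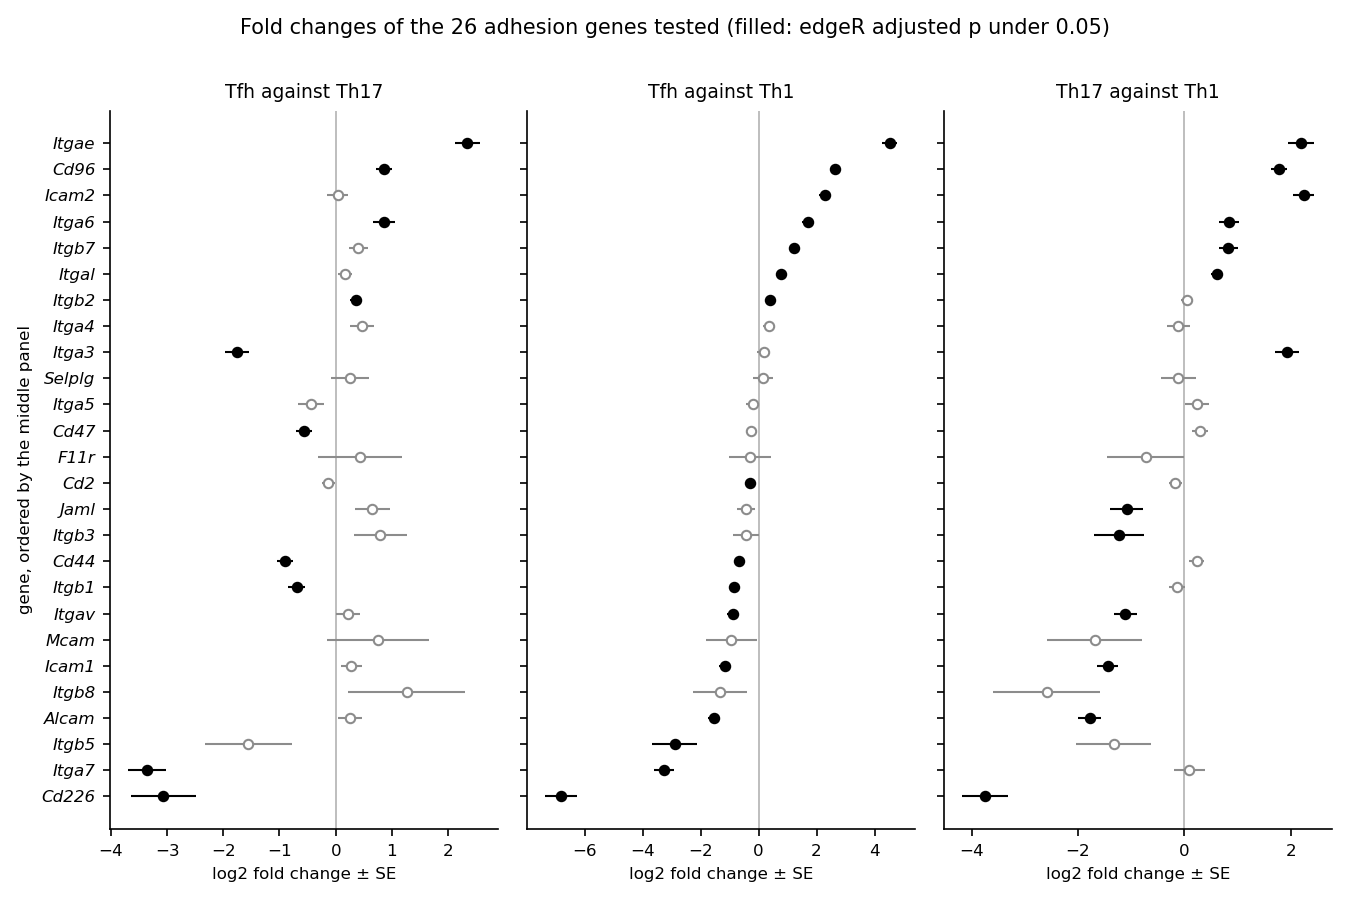
Log2 fold change with its standard error for the 26 adhesion genes tested, in Tfh against Th17, Tfh against Th1 and Th17 against Th1 (horizontal axes), ordered by the middle panel. Filled points have an edgeR adjusted p under 0.05; Itgae stands at the top with 4.52 in Tfh against Th1 and Cd226 at the bottom with -6.82.

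The leukocyte integrin LFA-1 is the pair of Itgal (Entrez gene 16408, chr7:127296139-127335137, GRCm38), its alpha chain CD11a, and Itgb2 (Entrez gene 16414), the beta 2 chain CD18. Itgal stood at 373, 443, 563, 549 and 461 CPM in Th1, at 704, 696, 709, 819 and 726 in Th17 and at 722, 837, 814, 922 and 814 in Tfh. The 5 Th1 libraries lay below all 10 others, while the Th17 and Tfh values overlapped. Itgal was 1.72-fold above its Th1 level in Tfh (log2 fold change 0.78 ± 0.12 SE, edgeR adjusted p = 2.67e-05) and 1.53-fold higher in Th17 than in Th1 (log2 fold change 0.61 ± 0.12 SE, edgeR adjusted p = 0.000502). Between Tfh and Th17 the log2 fold change of 0.17 ± 0.12 was not called (95% interval -0.08 to 0.42).

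Itgb2 stood at 485, 504, 569, 519 and 383 CPM in Th1, at 486, 496, 491, 550.3 and 519.6 in Th17 and at 603, 695, 654, 696 and 613 in Tfh. The Tfh libraries lay above all 10 others, and Th1 and Th17 overlapped. Itgb2 was 1.33-fold above its Th1 level (log2 fold change 0.41 ± 0.11 SE, edgeR adjusted p = 0.00506) and 1.28-fold above its Th17 level (log2 fold change 0.36 ± 0.11 SE, edgeR adjusted p = 0.0309). The call against Th17 was lost without Th17 replicate 1, 2 or 3, without Tfh replicate 2 or 4 and with no filter on low counts (adjusted p 0.0532 to 0.0759). Per kilobase of transcript (RPKM, CPM divided by transcript length), Itgb2 and Itgal were the most abundant beta and alpha chains in each condition. Itgb2 averaged 166 ± 23.1 RPKM in Th1, 171 ± 9.003 in Th17 and 219.6 ± 14.7 in Tfh, and Itgal 91.5 ± 15.1, 140.0 ± 9.67 and 157 ± 13.6 (SD, n = 5). The ratio of Itgb2 to Itgal RPKM was 1.46 to 2.28 in the Th1 libraries, 1.18 to 1.26 in Th17 and 1.33 to 1.47 in Tfh. The Th1 range lay above the Th17 range and overlapped slightly with the Tfh range.

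Of the other alpha chains that pair with Itgb2, none passed the filter. Itgam (CD11b), Itgax (CD11c) and Itgad (CD11d) are chains of myeloid cells, and their genes lie next to each other on chromosome 7, with Itgam and Itgax 11035 bases and Itgax and Itgad 23276 bases apart and no coding gene between them. They summed to 24, 14 and 31 counts over the 15 libraries. Of the Itgam counts, 16 came from Tfh replicate 1, the shallowest library, where they correspond to 3.09 CPM. Itgal lies 728 kb away on the same chromosome, with 35 coding genes between it and Itgam.

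The beta 7 chain Itgb7 (Entrez gene 16421, chr15:102215994-102233405) pairs with Itga4 to form the gut homing receptor for MAdCAM-1 and with Itgae, CD103, to form the receptor for E-cadherin that holds T cells in epithelium. Itgae (Entrez gene 16407, chr11:73090505-73147449) stood at 1.68, 1.45, 2.88, 1.57 and 1.28 CPM in Th1, at 8.31, 7.73, 7.48, 7.35 and 10.9 in Th17 and at 44.5, 30.2, 43.6, 40.2 and 53.4 in Tfh. The 3 conditions did not overlap. Tfh exceeded Th1 by 23.02-fold (log2 fold change 4.52 ± 0.26 SE, edgeR adjusted p = 5.1e-11) and Th17 by 5.07-fold (log2 fold change 2.34 ± 0.23 SE, edgeR adjusted p = 1.66e-06), and Th17 exceeded Th1 by 4.54-fold (log2 fold change 2.18 ± 0.24 SE, edgeR adjusted p = 9.87e-07). All 3 calls held without each library in turn and under all 9 other settings. Itgae is known as a gene that TGF-beta induces in T cells.

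Itgb7 stood at 25.5, 34.6, 41.4, 43.2 and 27.6 CPM in Th1, at 42.1, 61.7, 68.7, 69.4 and 63.4 in Th17 and at 84.1, 68.5, 87.1, 95.4 and 69.1 in Tfh. The Tfh libraries lay above all of Th1 and overlapped with Th17, and Th17 replicate 1 fell into the Th1 range. Itgb7 was 2.34-fold above its Th1 level in Tfh (log2 fold change 1.23 ± 0.18 SE, edgeR adjusted p = 1.5e-05) and 1.77-fold higher in Th17 than in Th1 (log2 fold change 0.82 ± 0.18 SE, edgeR adjusted p = 0.00121). Tfh against Th17 was not called (log2 fold change 0.40 ± 0.18 SE, edgeR adjusted p = 0.132).

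Itga4, the alpha chain of VLA-4 and of the gut homing pair, stood at 125, 118, 93.2, 84.1 and 85.7 CPM in Th1, at 74.9, 134, 94.6, 76.8 and 86.6 in Th17 and at 73.1, 174, 158, 112 and 129 in Tfh. The 3 conditions overlapped, and no comparison was called. The values were 0.36 ± 0.21 on the log2 scale in Tfh against Th1 (edgeR adjusted p = 0.176) and 0.47 ± 0.21 in Tfh against Th17 (edgeR adjusted p = 0.149). Both were called when Tfh replicate 1, the lowest Tfh library at 73.1 CPM, was left out (0.50 with adjusted p 0.0353 and 0.62 with adjusted p 0.0342).

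With no call for Itga4 and large differences in Itgae, the make-up of the chains that can pair with Itgb7 differed. Itgae made up 3.03% to 7.28% of the summed RPKM of Itga4 and Itgae in the Th1 libraries, 12.8% to 24.2% in Th17 and 30.6% to 60.7% in Tfh, with no overlap. In Tfh the means were 11.03 RPKM for Itgae and 13.2 for Itga4, beside 2.17 and 9.56 in Th17 and 0.461 and 10.4 in Th1. These shares are descriptions, rest on the transcript length used for each gene and were not tested.

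The beta 1 chain Itgb1 (Entrez gene 16412, chr8:128685654-128733579), CD29, is the common partner of chains that bind collagen, laminin, fibronectin and VCAM-1. Itgb1 stood at 220.3, 199, 147, 145 and 217 CPM in Th1, at 188, 184, 171, 137 and 163 in Th17 and at 103, 102, 108, 86.5 and 121 in Tfh. The Th1 and Th17 libraries overlapped and all 10 lay above the 5 Tfh libraries. Itgb1 was 1.78-fold lower in Tfh than in Th1 (log2 fold change -0.83 ± 0.15 SE, edgeR adjusted p = 0.000119) and 1.62-fold lower than in Th17 (log2 fold change -0.69 ± 0.15 SE, edgeR adjusted p = 0.00275). Itgb1 was thus lower in Tfh while Itgb7 was higher there than in Th1. The ratio of Itgb7 to Itgb1 RPKM was 0.165 to 0.424 in Th1, 0.318 to 0.720 in Th17 and 0.815 to 1.57 in Tfh, and the Tfh range lay above both others.

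**Figure D2:**
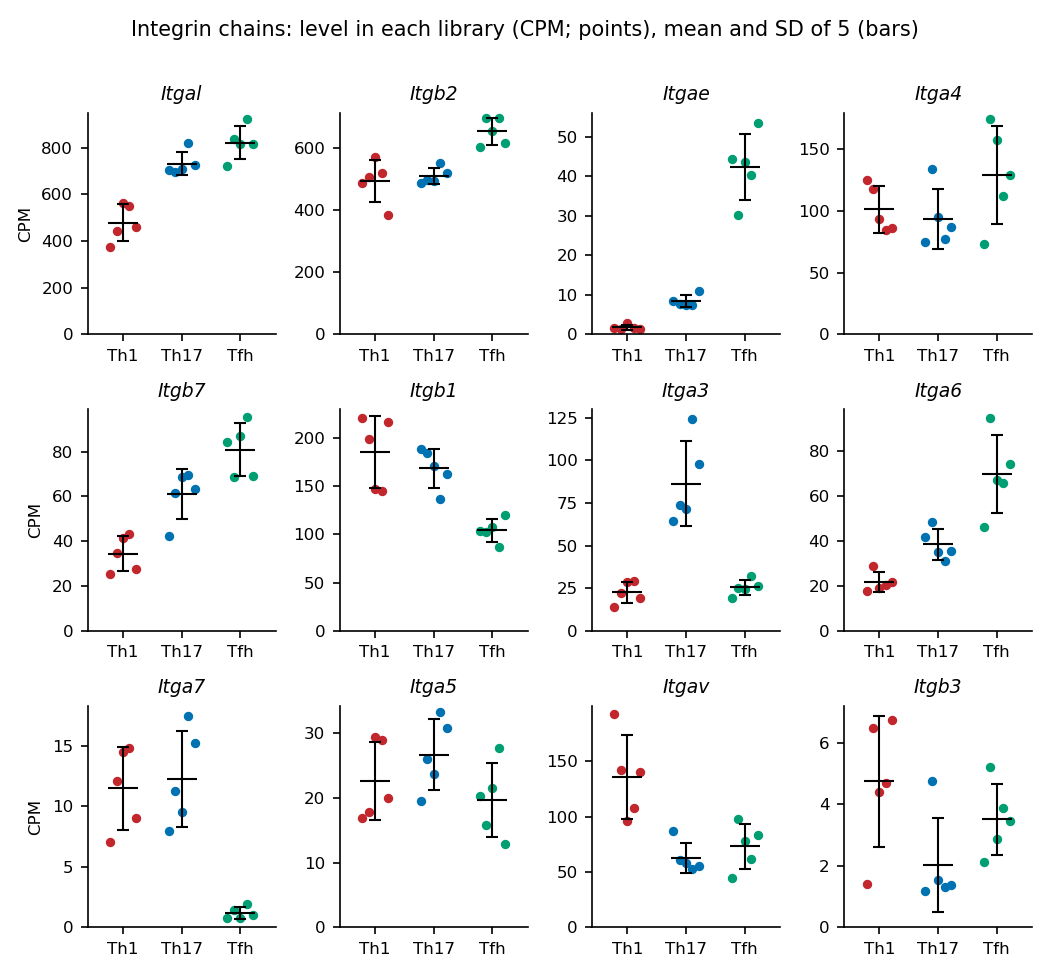
Level in CPM (vertical axes) of 12 integrin chains in each of the 5 libraries of Th1, Th17 and Tfh (points, in order of replicate), with the mean and SD (bars). Itgae rises from 1.77 in Th1 through 8.35 in Th17 to 42.4 in Tfh on average; Itga3 stands apart in Th17 and Itga7 in Tfh.

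Among the laminin-binding chains, 3 patterns appeared. Itga6 (Entrez gene 16403, chr2:71786886-71858427), CD49f, stood at 17.5, 29.01, 19.2, 20.2 and 21.8 CPM in Th1, at 41.9, 48.6, 35.3, 31.1 and 35.3 in Th17 and at 46.4, 94.6, 67.1, 65.6 and 74.4 in Tfh. The Th1 values lay below all others, and the lowest Tfh library, replicate 1, lay between the Th17 libraries. Itga6 was 3.23-fold above its Th1 level in Tfh (log2 fold change 1.69 ± 0.19 SE, edgeR adjusted p = 8.26e-07), 1.81-fold higher than in Th17 (log2 fold change 0.86 ± 0.19 SE, edgeR adjusted p = 0.00377) and 1.78-fold higher in Th17 than in Th1 (log2 fold change 0.83 ± 0.19 SE, edgeR adjusted p = 0.002).

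Itga3 (Entrez gene 16400, chr11:95044475-95076844), CD49c, stood at 14.2, 22.1, 28.5, 28.97 and 19.1 CPM in Th1, at 64.5, 73.6, 71.7, 124 and 97.9 in Th17 and at 19.5, 24.9, 24.6, 31.9 and 26.5 in Tfh. The 5 Th17 libraries lay above all 10 others, and Th1 and Tfh overlapped. Itga3 was 3.81-fold higher in Th17 than in Th1 (log2 fold change 1.93 ± 0.22 SE, edgeR adjusted p = 1.23e-06) and 3.38-fold lower in Tfh than in Th17 (log2 fold change -1.76 ± 0.22 SE, edgeR adjusted p = 2.04e-05). It was the 1 adhesion gene with its highest mean in Th17 that was called against both other conditions. Its transcript has a GC content of 57.9%, and its highest Th17 values came from replicates 4 and 5, which deviated toward GC-rich genes; both calls held with the correction for GC content.

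Itga7 (Entrez gene 16404, chr10:128933421-128958286), best known from muscle, stood at 7.01, 12.1, 14.5, 14.8 and 9.03 CPM in Th1, at 7.96, 11.2, 9.52, 17.4 and 15.2 in Th17 and at 0.773, 1.41, 0.817, 1.89 and 0.988 in Tfh. All 5 Tfh libraries lay below all 10 others. Itga7 was 10.3-fold lower in Tfh than in Th17 (log2 fold change -3.36 ± 0.34 SE, edgeR adjusted p = 2.99e-06) and 9.62-fold lower than in Th1 (log2 fold change -3.27 ± 0.34 SE, edgeR adjusted p = 2.6e-07). Th17 and Th1 overlapped, with 0.09 ± 0.29 between them. Of the 3 laminin-binding chains, Itga6 was thus highest in Tfh, Itga3 highest in Th17 and Itga7 lowest in Tfh, each called against both other conditions.

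Itga5, the alpha chain of the fibronectin receptor, stood at 16.96, 17.8, 29.4, 28.9 and 19.9 CPM in Th1, at 19.6, 26.04, 23.6, 33.2 and 30.8 in Th17 and at 20.3, 15.8, 21.5, 27.7 and 12.9 in Tfh. The conditions overlapped and no comparison was called, with log2 fold changes of -0.44 ± 0.23, -0.21 ± 0.23 and 0.23 ± 0.23 in Tfh against Th17, Tfh against Th1 and Th17 against Th1. Among the 36 genes, the collagen-binding chains Itga1 and Itga2, neighbours 25979 bases apart on chromosome 13, did not pass the filter. Itga1 had 0 counts in all libraries, which allows a level of up to 0.0186 CPM over the 15 libraries, and Itga2 had 76 counts. Itga8 had 5 counts and Itga9 had 83.

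Shares were taken of the summed RPKM of the alpha chains among the 36 genes that pair with Itgb1. The sum leaves out Itga10 and Itga11, integrin alpha chains outside the 36. Itga6 took 29.4% to 34.8% in the Tfh libraries, against 12% to 19.6% in Th17 and 7.72% to 13.3% in Th1. Itga3 took 26.3% to 42.6% in Th17, against 5.53% to 13.4% in Th1 and 8.10% to 13.4% in Tfh. Itgav took 31.0% to 51.8% in Th1, against 12.4% to 24.9% in Th17 and 17.9% to 23.2% in Tfh. On average the leading chain per length was Itgav in Th1, Itga3 in Th17 and Itga6 in Tfh. This order rests on the transcript length used for each gene, 9767 bases for Itga4, 4861 for Itga3 and 4310 for Itga6. In CPM, Itga4 averaged 93.4 in Th17 beside 86.4 for Itga3, and 129 in Tfh beside 69.6 for Itga6. Over the 8 beta chains, Itgb2 made up 71.95%, 71.6% and 79.0% of the summed RPKM in Th1, Th17 and Tfh, Itgb1 made up 21.5%, 18.5% and 9.87%, and Itgb7 made up 5.58%, 9.49% and 10.8%.

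**Figure D3:**
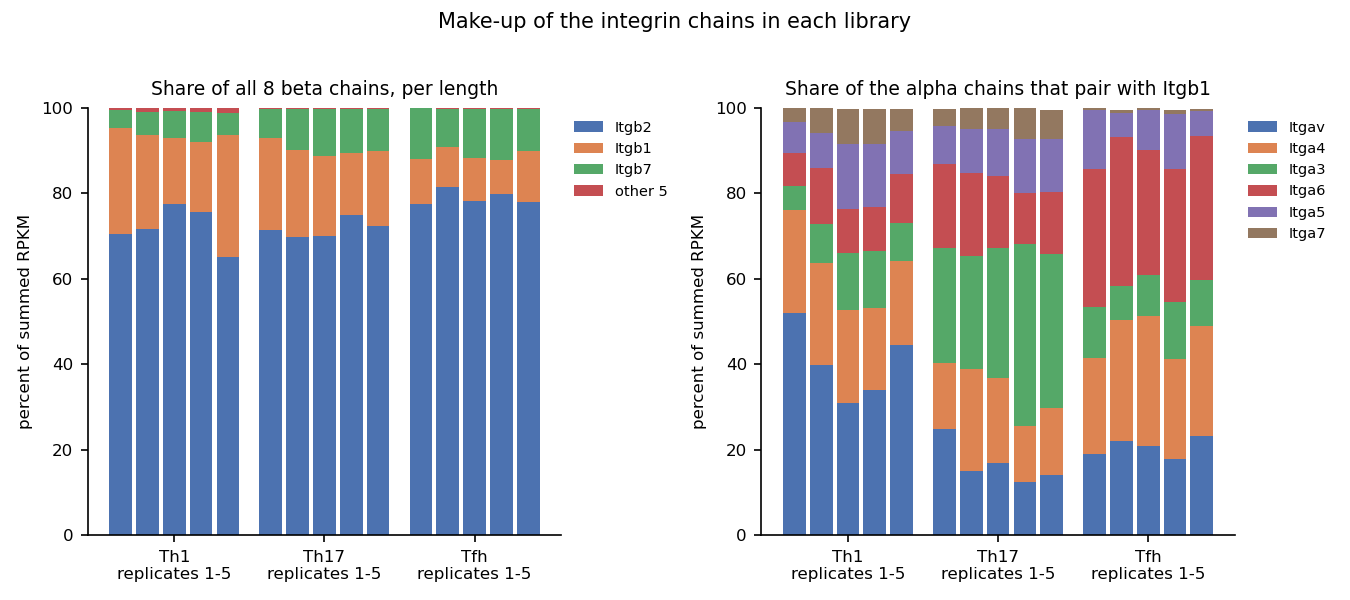
Share in percent of the summed RPKM (vertical axes), in 1 bar per library, replicates 1 to 5 of each condition. The left panel shows the beta chains, the right panel the alpha chains among the 36 genes that pair with Itgb1. What is missing to 100% on the right are chains of the 36 that did not pass the filter. Itgb1 averages 9.87% of the beta chains in Tfh against 21.5% in Th1, and Itga6 leads the alpha chains in Tfh.

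Itgav (Entrez gene 16410, chr2:83722303-83806917), CD51, forms receptors for matrix proteins such as vitronectin and, with Itgb6 or Itgb8, receptors that activate latent TGF-beta. It stood at 193, 143, 96, 108 and 139.9 CPM in Th1, at 86.9, 61.3, 58.03, 52.6 and 55.5 in Th17 and at 44.8, 97.7, 77.9, 61.9 and 83.8 in Tfh. All Th1 libraries lay above the Th17 libraries, while the highest Tfh value of 97.7 exceeded the lowest Th1 value. Itgav was 2.16-fold lower in Th17 than in Th1 (log2 fold change -1.11 ± 0.22 SE, edgeR adjusted p = 0.000486) and 1.85-fold lower in Tfh than in Th1 (log2 fold change -0.89 ± 0.22 SE, edgeR adjusted p = 0.00221). Its transcript has a GC content of 43.5%, and its lowest Th1 values came from replicates 3 and 4, which deviated toward GC-rich genes; both calls held with the correction for GC content.

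Its beta partners other than Itgb1 were scarce. Itgb3 averaged 4.74 ± 2.13, 2.04 ± 1.53 and 3.51 ± 1.16 CPM in the order Th1, Th17, Tfh (SD, n = 5), and ranged from 1.17 to 6.73 CPM. In Th17 against Th1 its log2 fold change was -1.23 ± 0.47 SE, edgeR adjusted p = 0.0476, a call that was lost in 10 of the 15 fits that leave out a library and with no filter on low counts (adjusted p up to 0.111). Without Th17 replicate 2, whose 4.76 CPM was the highest Th17 value, it was -1.80. Itgb5 averaged 3.65 ± 0.304, 1.44 ± 0.784 and 0.44 ± 0.635 CPM. Its Th1 libraries, at 3.22 to 3.97 CPM, lay above all others, and 3 of the 5 Tfh libraries had 0 counts. The log2 fold change in Tfh against Th1 was -2.89 ± 0.77 SE, edgeR adjusted p = 0.00467, and -3.83 without Tfh replicate 5, which had the highest Tfh value.

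Itgb8 averaged 1.58 ± 0.951, 0.244 ± 0.354 and 0.589 ± 0.613 CPM. Th17 against Th1 was not called (log2 fold change -2.59 ± 1.01 SE, edgeR adjusted p = 0.0511), but passed under 6 of 9 other settings and in 4 of 15 fits without a library (adjusted p 0.0151 to 0.106 over all of these). Itgb6 had 7 counts, all in Th1, and Itgb4, the partner of Itga6 in epithelial cells, had 50. The platelet chain Itga2b, the partner of Itgb3, had 92 counts in 10 of the 15 libraries, and the platelet markers Pf4, Ppbp and Gp9 were at 0 throughout. Another platelet marker, Gp1ba, averaged 0.728, 0.522 and 1.68 CPM in Th1, Th17 and Tfh.

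Of 22 known alpha-beta pairs among these chains, 12 had both chains above the filter. Counting a chain as present at a mean of 1 RPKM or more, both chains were present for 9 pairs in Th1, 9 in Th17 and 8 in Tfh. The mRNA of the scarcer chain caps how far the pair could form if protein followed mRNA, which was not measured. For LFA-1 the scarcer chain was Itgal in every condition, at 71.5 to 108 RPKM in the Th1 libraries, 133 to 157 in Th17 and 138 to 176 in Tfh. For Itgae with Itgb7 it was Itgae, at 0.332 to 0.750, 1.91 to 2.83 and 7.86 to 13.9 RPKM.

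Taken 1 pair at a time, the alpha chain was the scarcer chain of each pair with Itgb1 in each condition on average. These alpha chains share Itgb1, which this pairwise view leaves out. Itga6 stood at 4.06 to 6.73, 7.21 to 11.3 and 10.8 to 21.96 RPKM in Th1, Th17 and Tfh, and Itga3 at 2.91 to 5.96, 13.3 to 25.6 and 4.02 to 6.57. Itga7 fell under 1 RPKM in every Tfh library (0.192 to 0.470), so that the pair Itga7-Itgb1 was counted as present in Th17 and Th1 and not in Tfh. Itgae-Itgb7 was counted as present in Tfh and Th17 and not in Th1. Of the pairs of Itgav with its scarce partners, the one with Itgb5 reached 1.11 RPKM on average in Th1 and 0.438 in Th17 and 0.134 in Tfh. The one with Itgb8 stayed at or under 0.334 RPKM in every library. The summed RPKM of the Itgb1 partners among the 36 genes came to 0.784 to 1.19 times that of Itgb1 in Th1. It came to 1.00 to 1.67 times in Th17 and 1.23 to 2.35 times in Tfh.

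**Figure D4:**
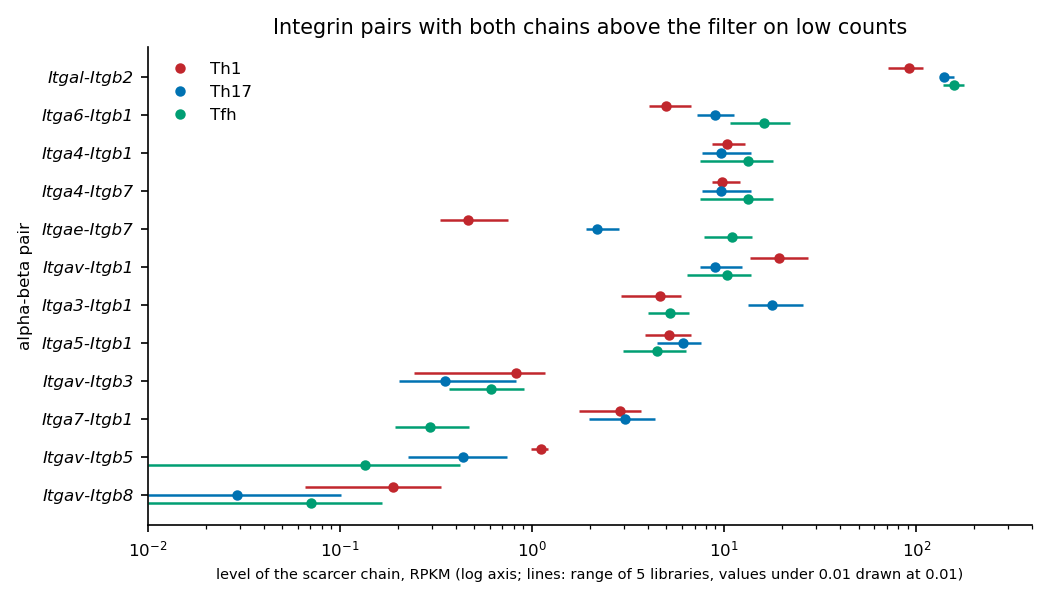
RPKM of the scarcer chain (horizontal axis, log scale) for the 12 alpha-beta pairs whose chains both passed the filter, as the mean (point) and range (line) over 5 libraries of each condition. Itgal-Itgb2 stands highest in each condition; Itgae-Itgb7 spans from 0.461 RPKM in Th1 to 11.03 in Tfh.

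The ligands of LFA-1 on leukocytes differed in opposite directions. Icam1 (Entrez gene 15894, chr9:21015940-21028814), an adhesion molecule that inflammatory signals induce, stood at 82.97, 102, 153, 154 and 86.7 CPM in Th1, at 37.9, 36.9, 38.1, 53.9 and 46.2 in Th17 and at 50.8, 39.98, 63.5, 55.2 and 49.1 in Tfh. The Th1 libraries lay above all 10 others. Icam1 was 2.72-fold lower in Th17 than in Th1 (log2 fold change -1.44 ± 0.20 SE, edgeR adjusted p = 1.04e-05) and 2.24-fold lower in Tfh (log2 fold change -1.16 ± 0.19 SE, edgeR adjusted p = 6.92e-05). Within Th1, replicates 3 and 4 stood at 153 and 154 CPM and the others at 83.0 to 102; these are the Th1 libraries that deviated toward GC-rich genes, and Icam1 has a GC content of 55.4%.

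Icam2 (Entrez gene 15896, chr11:106377656-106388139), a ligand that resting leukocytes and endothelium carry, stood at 10.5, 17.2, 19.5, 19.2 and 20.9 CPM in Th1, at 68.1, 71.97, 80.9, 111 and 84.3 in Th17 and at 62.2, 88.4, 101, 100.2 and 75.3 in Tfh. All 5 Th1 libraries lay below all 10 others. Icam2 was 4.87-fold above its Th1 level in Tfh (log2 fold change 2.28 ± 0.20 SE, edgeR adjusted p = 2.32e-08) and 4.74-fold higher in Th17 than in Th1 (log2 fold change 2.24 ± 0.20 SE, edgeR adjusted p = 4.53e-08), and Tfh and Th17 differed by 0.04 ± 0.19 (95% interval -0.35 to 0.43). Th1 libraries thus carried more Icam1 and less Icam2 than the other libraries.

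Alcam (Entrez gene 11658, chr16:52248996-52453081), CD166, the ligand of CD6, stood at 104, 80.5, 61.1, 65.04 and 78.8 CPM in Th1, at 22.01, 33.1, 21.5, 15.6 and 20.7 in Th17 and at 23.6, 38, 19.4, 24.6 and 28.8 in Tfh. The Th1 libraries lay above all 10 others. Alcam was 3.45-fold lower in Th17 than in Th1 (log2 fold change -1.78 ± 0.22 SE, edgeR adjusted p = 2.85e-06) and 2.9-fold lower in Tfh (log2 fold change -1.54 ± 0.22 SE, edgeR adjusted p = 9.88e-06). Between Tfh and Th17 the difference of 0.25 ± 0.21 was not called.

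The junction proteins were less clear. Jaml, which binds the coxsackie and adenovirus receptor on epithelium, stood at 23.8, 14.8, 9.66, 13.7 and 22.2 CPM in Th1, at 14.6, 4.97, 7.73, 4.71 and 7.58 in Th17 and at 12.8, 14.7, 12.3, 9.46 and 12.9 in Tfh. The conditions overlapped, with Th17 replicate 1 at 14.6 CPM inside the range of Th1. In Th17 against Th1 the log2 fold change was -1.08 ± 0.31 SE, edgeR adjusted p = 0.00921, and the other comparisons were not called. F11r, JAM-A, and Mcam, CD146, were low, at 0 to 3.39 and 0 to 4.26 CPM, and no comparison of either was called.

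The selectin ligand Selplg, PSGL-1, through which T cells roll on P-selectin, stood at 85.2, 144, 312, 291 and 115 CPM in Th1, at 114, 143, 143, 300.5 and 177 in Th17 and at 145, 157, 203, 326 and 218 in Tfh. The conditions overlapped over most of their ranges and no comparison was called. Within each condition the values differed by over 2-fold, with the highest in Th1 replicates 3 and 4, Th17 replicate 4 and Tfh replicate 4. These 4 libraries had the 4 strongest deviations toward GC-rich genes, and Selplg has a GC content of 58.6%. The log2 fold change in Tfh against Th17 was 0.26 ± 0.34 (95% interval -0.45 to 0.96), so that a difference of this size was not detectable here.

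Cd44, the receptor for hyaluronan that marks activated T cells, stood at 294, 249.8, 261, 242 and 282 CPM in Th1, at 390.0, 351, 278, 254 and 291 in Th17 and at 189, 207, 151, 145 and 142 in Tfh. All Tfh libraries lay below all 10 others, and Th1 and Th17 overlapped. Cd44 was 1.88-fold lower in Tfh than in Th17 (log2 fold change -0.91 ± 0.14 SE, edgeR adjusted p = 0.00021) and 1.596-fold lower than in Th1 (log2 fold change -0.67 ± 0.14 SE, edgeR adjusted p = 0.000657). Itgb1 and Itga7 shared this order, with Tfh below both other conditions and no call between those.

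Cd226 and Cd96 are receptors on T and NK cells that share the ligand CD155; Cd226, DNAM-1, activates, and Cd96 is counted among the inhibitory members in the mouse. Cd226 (Entrez gene 225825) stood at 61.7, 37.5, 31.6, 30.3 and 46.2 CPM in Th1, at 4.21, 3.07, 1.78, 2.92 and 3.398 in Th17 and at 0, 0.283, 0.0817, 0 and 1.28 in Tfh. The 3 conditions did not overlap. Cd226 was 13.5-fold lower in Th17 than in Th1 (log2 fold change -3.75 ± 0.43 SE, edgeR adjusted p = 1.31e-06). In Tfh against Th1 the log2 fold change was -6.82 ± 0.55 SE, edgeR adjusted p = 8.79e-09, and in Tfh against Th17 it was -3.06 ± 0.58 SE, edgeR adjusted p = 0.00108. Of 16 Tfh counts, 13 came from replicate 5. Without that library the log2 fold changes were -8.73 and -4.94, and 3 counts remained in the 4 other Tfh libraries, which puts the ratio of Th1 to Tfh at 442 (exact 95% interval 151 to 2144) and of Th17 to Tfh at 34.6 (11.6 to 170). With all libraries the ratios were 107 (65.8 to 188) and 8.40 (5.01 to 15.1). The intervals cover counting error only.

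Cd96 (Entrez gene 84544, chr16:46035652-46120248) had the opposite order and stood at 34.2, 26.9, 33.1, 25.2 and 26.1 CPM in Th1, at 85.9, 112, 103, 90.9 and 105 in Th17 and at 146, 161, 217, 162 and 217 in Tfh. The 3 conditions did not overlap. Cd96 was 6.21-fold above its Th1 level in Tfh (log2 fold change 2.64 ± 0.15 SE, edgeR adjusted p = 7.28e-11), 1.82-fold higher than in Th17 (log2 fold change 0.86 ± 0.14 SE, edgeR adjusted p = 0.000372) and 3.41-fold higher in Th17 than in Th1 (log2 fold change 1.77 ± 0.15 SE, edgeR adjusted p = 2.22e-08). The ratio of Cd226 to Cd96 RPKM was 0.838 to 1.58 in the Th1 libraries, 0.0153 to 0.0431 in Th17 and 0 to 0.00520 in Tfh. Per length, Cd226 and Cd96 were thus near each other in Th1, while Cd96 far exceeded Cd226 elsewhere.

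Icam1, Alcam and Cd96 are shown here as the promoters of members that set Th1 apart: of the members called with no overlap in both Tfh and Th17 against Th1, these are the ones with a window in the RefSeq table. The windows hold the 250 bases before the start of the gene on GRCm38.p6, credited to RefSeq, printed from 5′ to 3′ on the gene's strand: chr9:21015690-21015939 (plus strand) for Icam1, chr16:52453082-52453331 (minus) for Alcam and chr16:46120249-46120498 (minus) for Cd96. Capitals mark matches to the 5 short motifs searched on both strands.
Icam1: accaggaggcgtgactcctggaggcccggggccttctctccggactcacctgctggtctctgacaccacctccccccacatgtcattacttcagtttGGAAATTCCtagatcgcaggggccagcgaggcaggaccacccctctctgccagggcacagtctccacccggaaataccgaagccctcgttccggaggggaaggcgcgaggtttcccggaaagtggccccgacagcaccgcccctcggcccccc
Alcam: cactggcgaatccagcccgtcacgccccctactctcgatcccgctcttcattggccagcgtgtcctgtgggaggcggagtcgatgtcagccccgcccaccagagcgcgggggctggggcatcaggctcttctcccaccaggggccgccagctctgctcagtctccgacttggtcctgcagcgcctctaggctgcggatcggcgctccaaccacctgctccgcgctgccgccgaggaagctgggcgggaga
Cd96: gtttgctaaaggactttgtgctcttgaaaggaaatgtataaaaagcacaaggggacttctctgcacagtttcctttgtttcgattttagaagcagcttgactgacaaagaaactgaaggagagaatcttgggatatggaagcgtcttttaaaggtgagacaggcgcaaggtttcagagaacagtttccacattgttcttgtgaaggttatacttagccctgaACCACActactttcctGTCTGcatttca

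The motifs were the RUNX core TGTGGT, the SMAD box CAGAC, the Maf half-site TGCTGAC, a T-bet site AGGTGTGA and a kappa-B site GGAAATTCC. Over all 32851 windows of this length, 14%, 42.2%, 3.81%, 1.12% and 0.286% held them. The Icam1 window held the kappa-B letters at 153 bases before the start, and of the 24 members with a window it was the 1 that held them. The Cd96 window held the RUNX core on the opposite strand at 28 bases before the start and the SMAD box on the opposite strand at 12. The Alcam window held none of the 5. Over the 27 windows of 24 members, 4 held the RUNX core, 10 the SMAD box and 0 the Maf half-site or the T-bet site. A match describes the letters of the window and shows no binding, and a window without one says nothing of the factor.

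Cd2, which binds CD48 on other cells, stood at 419, 443, 595, 522 and 458 CPM in Th1, at 429.8, 411, 401, 494 and 429 in Th17 and at 445, 424, 376, 396 and 337 in Tfh. The conditions overlapped. In Tfh against Th1 the log2 fold change was -0.30 ± 0.12 SE, edgeR adjusted p = 0.043, a call that was lost in 7 of the 15 fits without a library (Th1 replicates 3 and 4, Th17 replicates 1 and 2, Tfh replicates 3, 4 and 5), without composition scaling and with no filter on low counts, with an adjusted p of up to 0.106. Per length Cd2 was the most abundant of the 36 genes in each condition, at 423 ± 61.8, 376 ± 31.3 and 343 ± 36.4 RPKM in Th1, Th17 and Tfh.

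Cd47, the ligand of SIRP alpha on phagocytes and a receptor for thrombospondin, stood at 896, 824, 646, 658 and 764 CPM in Th1, at 999.8, 1087, 913, 762 and 872 in Th17 and at 438, 749, 690.5, 612 and 645 in Tfh. Tfh lay below all Th17 libraries and overlapped with Th1. Cd47 was 1.48-fold lower in Tfh than in Th17 (log2 fold change -0.56 ± 0.15 SE, edgeR adjusted p = 0.0116), and the other comparisons were not called.

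**Figure D5:**
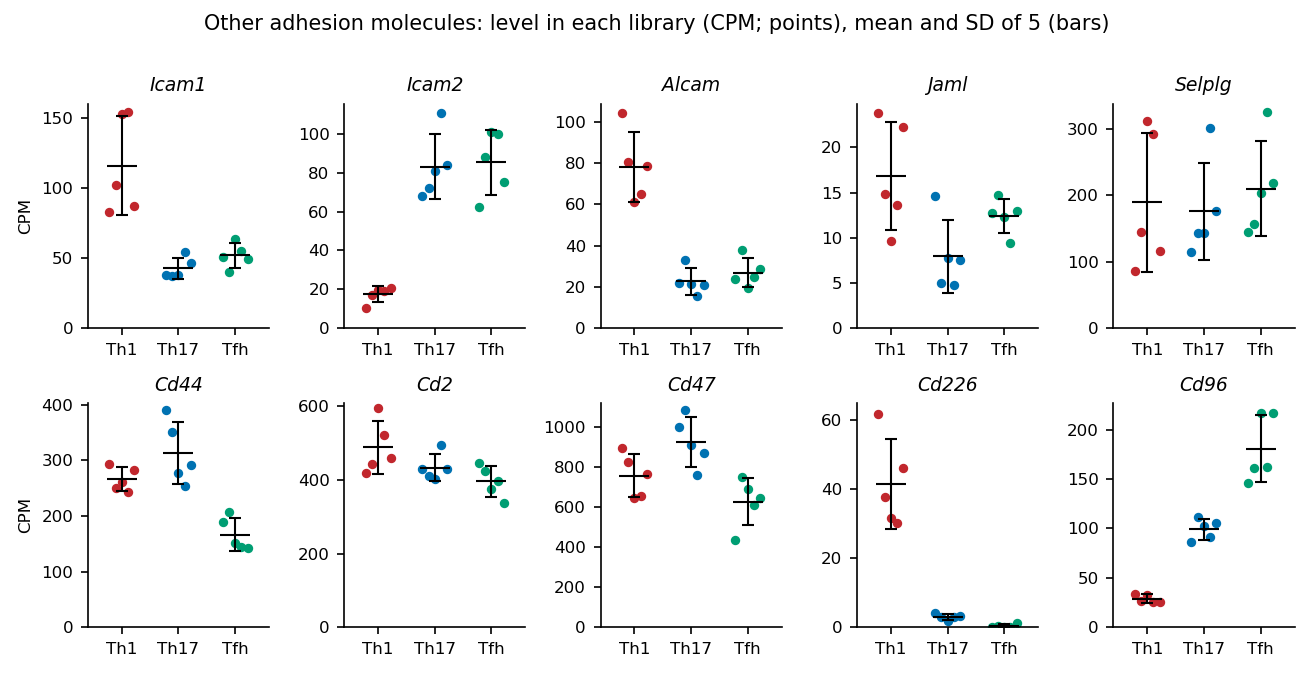
Level in CPM (vertical axes) of the 10 adhesion molecules that are not integrin chains and reach a mean of 10 CPM, in each of the 5 libraries of Th1, Th17 and Tfh (points, in order of replicate), with the mean and SD (bars). Icam1, Alcam and Cd226 are highest and Icam2 and Cd96 lowest in Th1; Selplg varies by over 2-fold within each condition.

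Related genes were followed in 3 lists, each made with earlier results of these data known. The list of integrin activation and linkage holds 45 genes, such as talins, kindlins, RAP1 regulators and tetraspanins, of which 40 were tested. In Tfh against Th17, 9 were called higher and 4 lower, in Tfh against Th1 18 and 8, and in Th17 against Th1 12 and 8. These are 32.5%, 65% and 50% of the 40, where 16.8%, 49.3% and 36.9% of all genes tested were called. Its median log2 fold change was 0.13, 0.47 and 0.23, beside -0.01, -0.01 and 0.03 over all genes. Rapgef6, an exchange factor for RAP1, stood at 748 ± 147 CPM in Tfh and 407 ± 90.02 in Th17 and was higher in Tfh (log2 fold change 0.88 ± 0.18 SE, edgeR adjusted p = 0.00237); it was 3.56-fold above its Th1 level in Tfh (log2 fold change 1.83 ± 0.19 SE, edgeR adjusted p = 1.83e-07). Rassf5, the RAP1 effector RAPL that acts on LFA-1, stood at 485 ± 14.2 CPM in Tfh and 147 ± 12.7 in Th1 (log2 fold change 1.72 ± 0.10 SE, edgeR adjusted p = 5.68e-11). Flna, filamin A, which binds beta chain tails, stood at 834 ± 111 CPM in Tfh and 283 ± 52.2 in Th1 (log2 fold change 1.56 ± 0.16 SE, edgeR adjusted p = 1.59e-07). In Th17, Rassf5 averaged 362 CPM and Flna 670, and both were also called higher there than in Th1.

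Further members of the list that were higher in Tfh than in Th17 were Actn1, alpha-actinin (log2 fold change 0.92 ± 0.15 SE, edgeR adjusted p = 0.000277), and Cyth1, cytohesin 1, which binds the beta 2 tail (log2 fold change 0.75 ± 0.19 SE, edgeR adjusted p = 0.0092). For Actn1 it was Th17 that stood apart, at 66.4 CPM on average beside 116 in Th1 and 126 in Tfh. Lower in Tfh than in Th17 were Vcl, vinculin (log2 fold change -1.20 ± 0.12 SE, edgeR adjusted p = 3.22e-06), Bsg, basigin (log2 fold change -1.02 ± 0.12 SE, edgeR adjusted p = 7.9e-06), and the tetraspanin Cd81 (log2 fold change -0.57 ± 0.14 SE, edgeR adjusted p = 0.00895). Cd81 stood at 76.5 ± 7.97 CPM in Tfh and 304 ± 64.2 in Th1 (log2 fold change -1.99 ± 0.15 SE, edgeR adjusted p = 2.2e-09). The tetraspanin Cd9 (log2 fold change -1.64 ± 0.16 SE, edgeR adjusted p = 9.05e-08) and Sipa1l1, a GTPase activating protein for RAP1 (log2 fold change -1.55 ± 0.19 SE, edgeR adjusted p = 1.43e-06), were also lower in Tfh than in Th1. Both were called lower in Th17 than in Th1 as well, at 46.3 CPM for Cd9 and 57.3 for Sipa1l1. In Th17 against Th1, Zyx, zyxin, was higher (log2 fold change 1.18 ± 0.29 SE, edgeR adjusted p = 0.0034) and Slc3a2, the CD98 heavy chain that binds beta 1 tails, was lower (log2 fold change -1.48 ± 0.21 SE, edgeR adjusted p = 1.31e-05). Slc3a2 averaged 396, 142 and 145 CPM in Th1, Th17 and Tfh. Zyx averaged 145, 330 and 252 CPM in the same order.

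The list of selectins, selectin ligand carriers and the enzymes that glycosylate them holds 22 genes, of which 17 were tested. In Tfh against Th17, 1 was called higher and 5 lower, in Tfh against Th1 6 and 7, and in Th17 against Th1 7 and 6. That makes 35.3%, 76.5% and 76.5% of the 17, against 16.8%, 49.3% and 36.9% over all genes. Its median log2 fold change was -0.11, 0.16 and 0.05, beside -0.01, -0.01 and 0.03 over all genes. Selp, P-selectin, known from platelets and endothelium, stood at 0.8397 ± 0.516 CPM in Tfh and 54.1 ± 9.95 in Th1 (log2 fold change -5.90 ± 0.35 SE, edgeR adjusted p = 1.2e-10) and at 3.34 ± 1.01 CPM in Th17. The platelet list summed to 0.852 to 1.45, 0.106 to 0.848 and 0.817 to 2.97 CPM in Th1, Th17 and Tfh. The part of platelets in the Selp level was not tested. Fut4, a fucosyltransferase, stood at 1.16 ± 0.957 CPM in Tfh and 17.4 ± 4.22 in Th1 (log2 fold change -3.78 ± 0.44 SE, edgeR adjusted p = 9.1e-07), and at -4.37 on the log2 scale without Tfh replicate 3.

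Other genes of this list went the opposite way. Chst2, a sulfotransferase, stood at 93.99 ± 14.2 CPM in Tfh and 5.44 ± 0.9503 in Th1 (log2 fold change 4.11 ± 0.17 SE, edgeR adjusted p = 5e-13), and Cd24a, a carrier of P-selectin ligands, at 105 ± 20.2 CPM in Tfh and 8.43 ± 5.16 in Th1 (log2 fold change 3.67 ± 0.32 SE, edgeR adjusted p = 1.92e-08). Cd24a was also lower in Tfh than in Th17 (log2 fold change -1.34 ± 0.28 SE, edgeR adjusted p = 0.00254), as were the tyrosine sulfotransferase Tpst1 (log2 fold change -1.32 ± 0.18 SE, edgeR adjusted p = 4.8e-05) and the sialyltransferase St3gal4 (log2 fold change -0.64 ± 0.15 SE, edgeR adjusted p = 0.00605). The sialyltransferase St3gal6 was the 1 gene called higher in Tfh than in Th17 (log2 fold change 1.64 ± 0.42 SE, edgeR adjusted p = 0.0102). B4galt1 was higher in Tfh than in Th1 (log2 fold change 1.75 ± 0.11 SE, edgeR adjusted p = 3.07e-10). Chst2 averaged 77.0 CPM in Th17, and B4galt1 averaged 99.7, 327 and 335 CPM in Th1, Th17 and Tfh. For both genes it was Th1 that stood apart. In Th17 against Th1, Fut7, the fucosyltransferase that makes selectin ligands on leukocytes, stood at 13.6 ± 5.96 CPM in Th17 and 3.75 ± 1.27 in Th1 (log2 fold change 1.85 ± 0.34 SE, edgeR adjusted p = 0.000276), and the polysialyltransferase St8sia4 at 15.04 ± 6.84 CPM in Th17 and 117 ± 56.6 in Th1 (log2 fold change -2.96 ± 0.44 SE, edgeR adjusted p = 3.01e-05). In Tfh, Fut7 averaged 9.57 CPM and St8sia4 13.8.

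The list of ligands and counter-receptors of the 36 genes holds 46 genes, of which 27 were tested. In Tfh against Th17, 5 were called higher and 5 lower, in Tfh against Th1 7 and 10, and in Th17 against Th1 8 and 6. The called shares of the 27 were 37%, 63% and 51.9%, again against 16.8%, 49.3% and 36.9% over all genes. Its median log2 fold change was 0.01, 0.29 and 0.26, with the same medians over all genes beside it. Pecam1, CD31, stood at 144 ± 23.3 CPM in Tfh and 16.5 ± 3.46 in Th1 (log2 fold change 3.12 ± 0.19 SE, edgeR adjusted p = 1.24e-10), and at 89.4 ± 16.8 CPM in Th17. Spp1, osteopontin, a ligand of integrins with Itgav or Itga4, was higher in Th17 than in Th1 (log2 fold change 2.37 ± 0.17 SE, edgeR adjusted p = 1.91e-09) and lower in Tfh than in Th17 (log2 fold change -1.94 ± 0.16 SE, edgeR adjusted p = 3.61e-07), with 129.5 ± 15.9 CPM in Tfh and 496 ± 94.9 in Th17. Thbs1, thrombospondin 1, a ligand of CD47, stood at 22.01 ± 13.3 CPM in Tfh and 0.102 ± 0.228 in Th1; the Th1 libraries held 6 counts, and the log2 fold change was 7.66 ± 0.75 SE, edgeR adjusted p = 1.1e-07, and 10.86 without Th1 replicate 5. Cd99l2 was higher in Tfh than in Th17 (log2 fold change 0.78 ± 0.15 SE, edgeR adjusted p = 0.00112) and than in Th1 (log2 fold change 1.55 ± 0.15 SE, edgeR adjusted p = 1.03e-07).

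Among the genes of this list that were lower in Tfh than in Th1 were Cd93 (log2 fold change -5.52 ± 0.71 SE, edgeR adjusted p = 3.51e-06; -6.28 without Tfh replicate 1), Crtam (log2 fold change -2.82 ± 0.45 SE, edgeR adjusted p = 4.06e-05) and Lrrc32, which anchors latent TGF-beta at the surface (log2 fold change -2.34 ± 0.36 SE, edgeR adjusted p = 3.25e-05). Cdh17, a cadherin with an integrin-binding motif, stood at 0.246 ± 0.496 CPM in Tfh and 10.6 ± 6.49 in Th17 (log2 fold change -5.56 ± 0.72 SE, edgeR adjusted p = 3.17e-05), and at -8.10 on the log2 scale without Tfh replicate 2. Tigit, the inhibitory receptor that shares CD155 with Cd226 and Cd96, was lower in Th17 than in Th1, at 25.7 ± 4.35 CPM in Th17 and 58.1 ± 11.4 in Th1 (log2 fold change -1.18 ± 0.19 SE, edgeR adjusted p = 6.5e-05). Pvr, CD155 itself, stood at 24.7 ± 4.13 CPM in Th17 and 41.2 ± 4.94 in Th1 (log2 fold change -0.74 ± 0.15 SE, edgeR adjusted p = 0.000797), and averaged 24.8 CPM in Tfh. Cd5 was higher in Th17 than in Th1 (log2 fold change 0.91 ± 0.16 SE, edgeR adjusted p = 0.00014), and its highest mean was in Tfh, at 590, 1107 and 1598 CPM in Th1, Th17 and Tfh.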

How the data were processed

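The authors deposited raw counts of reads for each Entrez gene ID in 15 libraries. STAR 2.7.2b, mm10 and featureCounts 1.6.4 are the aligner, genome and counter named in the submitters' processing notes. Annotation, strand setting and handling of reads with several matches were not given in the sources used here, so genes with close copies or overlapping neighbours are uncertain. Names came from RefSeq (GRCm38.p6; 25275 IDs) and GENCODE (18); 1886 IDs had none, and named genes held 98.2% of counts. No 2 libraries of the same condition agreed within counting noise (lowest chi-square per gene 9.39).

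The test was edgeR 4.0.16 in R 4.3.3 (default filter on low counts, TMM scaling, 1 model over all 15 libraries, quasi-likelihood test, robust spread). The filter left 12591 genes and removed 5472 others with counts. SEs come from the F statistic. RPKM used the longest matching GENCODE transcript, so ratios, shares and rankings between genes depend on that length. In single libraries 3 counts are 0.127 to 0.580 CPM; since PCR copies are not independent molecules, such limits cover counting error only. Members, lists, motifs and lineage genes were chosen with earlier results of these data known. Values in every library are given for members that reach a mean of 10 CPM in a condition. Of the related lists, up to 3 genes per direction and comparison were named, those of the largest change that passed the test without overlap and reached 10 CPM; a gene that met this rule is not reported here. Alternatives were other scalings and filters, DESeq2 1.42.0, limma 3.58.1 (voom), a replicate block, a GC correction and leaving out each library. The pipeline was tested on simulated data.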

Additional observations from a re-analysis of the deposited data

Results flagged for a closer look

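In 63 groups of 5 libraries (21 adhesion genes in 3 conditions), 6 had a highest or lowest library whose gap to its nearest neighbour took more than 0.71 of the group's range; chance flags about 1 group in 20. Itgae stood at 2.88 CPM in Th1 replicate 3, with the other Th1 libraries at 1.28 to 1.68, and at 10.9 CPM in Th17 replicate 5, with the others at 7.35 to 8.31. Itgal stood at 819 CPM in Th17 replicate 4, with the others at 696 to 726. In Th17 replicate 1, Itgav stood at 86.9 CPM, with the others at 52.6 to 61.3, and Itgb7 at 42.1 CPM, with the others at 61.7 to 69.4. Cd226 stood at 1.28 CPM in Tfh replicate 5, with the others at 0 to 0.283. The calls on Itgae, Itgal, Itgav, Itgb7 and Cd226 given above held without each of these libraries.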

How the results depend on the processing

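Over the 3 comparisons and 26 genes, 672 of 702 values under the 9 other settings and 1123 of 1170 values without a library kept their direction and their side of the threshold. The adhesion genes called higher in Tfh than in Th17 numbered 4, and 7 with the replicate block, 7 with the GC correction and 8 with both. All genes called in that comparison, in either direction, numbered 2113, of which 856 were higher. They numbered 2941 with the block, 3494 with the GC correction and 4027 with both. The higher ones alone are not given under these settings. Genes that passed under these were Itga4, Itga5, Itgb7, Icam1 and Jaml in Tfh against Th17, and Itgb8, Cd47 and Cd2 in comparisons with Th1. The correction can also remove differences between conditions that follow GC content. Itgb2 in Th17 against Th1 was -0.0150 with RLE factors and -0.0151 with DESeq2. Without a library, small differences changed sign: Icam2 in Tfh against Th17 ran from -0.0259 to 0.18, Itga7 in Th17 against Th1 from -0.10 to 0.22, Itgb2 in that comparison from -0.0682 to 0.0807, and Selplg from -0.0690 to 0.38 in Tfh against Th1 and from -0.43 to 0.12 in Th17 against Th1. Of the related lists, in Tfh against Th17, the activation list had 14 and 16 higher with the GC correction without and with the block (9 above) and 7 lower with both (4 above), the selectin list had 2 or 3 higher under DESeq2, the block, the correction or without Tfh replicate 4 (1 above), and the ligand list 3 higher without Th17 replicate 2 (5 above). The causes were not tested. No share over all genes stands beside the list counts under these settings, so they are descriptions. Same-numbered libraries are not shown to be paired: the correlation of their deviations ran from -0.10 to 0.57, was over 0.1 in 7 of 15 pairs and was best for the own number in 6 of 15. Counts limit Itgb3, Itgb5, Itgb8, Mcam and F11r, whose means stayed under 10 CPM.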

Other observations

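Of the integrin family genes outside the 36, Itga10 averaged 3.40, 1.82 and 3.64 CPM in the order Th1, Th17, Tfh, Itga11 had 2, 1 and 10 counts, and Itgbl1 had 0 counts in all 15 libraries. Foxp3, the lineage factor of regulatory T cells, averaged 0.483, 7.20 and 13.02 CPM, and Bcl6, the lineage factor of follicular helper cells, 13.3, 59.2 and 125 CPM.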
